A study of Mus musculus with 13 samples.

Results

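The 10 genes described here, Cdkn1a, Mdm2, Gdf15, Bax, Bbc3, Ccng1, Trp53inp1, Sesn1, Phlda3 and Btg2, are established transcriptional targets of the stress-activated factor p53. They were taken by name from 14078 genes measured in mouse adrenal gland, and all 10 were listed in every table. The filter on low counts removed none of the 14078 genes. The libraries are from C57BL/6 mice, 5 made before TAM, 4 made 24 h later and 4 made 8 weeks later, with TAM inducing the loss of Star, whose protein carries cholesterol into mitochondria for steroid synthesis. The allele, the driver of the deletion and the age of the mice are not given in the sources used here. Nothing says that each library is a separate mouse, so the p-values rest on the spread of these libraries, which may be technical. Among the groups here none was given TAM with Star intact, and effects of the agent, of the elapsed time and of losing the gene cannot be told apart. Star stood between 3207 and 4239 FPKM before TAM, at 487.2, 626.1, 17.4 and 208.0 FPKM in replicates 1 to 4 at 24 h, and between 85.9 and 201.6 FPKM at 8 weeks. FPKM is the deposited read number scaled by transcript length and library size.

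p53 is made and degraded continuously, because the ubiquitin ligase encoded by Mdm2 marks it for the proteasome. DNA damage, nucleolar stress and other insults free p53 from Mdm2, and it then binds DNA as a tetramer and raises genes that halt the cell cycle, repair damage or open the mitochondrial route to apoptosis. Mdm2 is itself a target, which closes a feedback loop. Some of these genes have other inputs: Gdf15 and Bbc3 also respond to the ATF4 and CHOP arm of the unfolded protein and amino acid stress response, and Btg2 behaves as an immediate early gene in many tissues. In the adrenal cortex p53 is best known through inherited loss of its function, which predisposes to adrenocortical carcinoma.

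The tetramer reads a response element made of 2 decamers. Each has 10 bases, namely 3 purines, C, 2 bases that are A or T, G and 3 pyrimidines, and it reads the same on both strands. RefSeq promoters (250 bases before to 50 after each start, GRCm38.p6) were found for 9 of the 10 genes. A pair of decamers up to 10 bases apart, with the C and G of each required and at most 2 mismatches in all, was present for 4 of the 9 (44.4%). The same search found one for 1032 of the 27025 genes in the promoter table (3.82%), and for 4 of 32 other p53 targets. The 9 genes had 14 promoters in all, and the 27025 genes had 32851. With at most 1 mismatch a pair was found among the 9 for Cdkn1a and Ccng1, against 0.566% of all genes. The sites of the 4 of these 9 genes are shown because they are what these promoters have in common in sequence. They are written 5′ to 3′ on the strand of the gene, and capitals mark the bases of the decamers that fit the motif.
Cdkn1a: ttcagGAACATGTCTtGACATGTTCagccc
Ccng1: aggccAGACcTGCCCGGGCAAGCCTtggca
Bax: tcccAGGCAAGCTTtGAACTTGCggcaat
Sesn1: tggGcGCTTGgCCttcAAGCTTGTTTttg
The decamers of Cdkn1a lie at chr17:29090928-29090947 on the plus strand. They begin 51 bases before the upstream RefSeq promoter start (29090979) and 2841 bases before the downstream one (29093769). The measured Cdkn1a transcripts start slightly further on, at 29090986 and, for the main one, at 29093772. The decamers of Ccng1 lie at chr11:40755462-40755481 on the minus strand, 195 bases before the start. In Bax (chr7:45467079-45467099, minus strand) and Sesn1 (chr10:41887253-41887275, plus strand) the decamers are 1 and 3 bases apart and begin 201 and 186 bases before the start. A match of letters is a description and not a measured binding site. No match was found in these windows for Bbc3, Btg2, Gdf15, Mdm2 and Phlda3, and Trp53inp1 was not searched. The windows of Gdf15 (chr8:70632046-70632345 and chr8:70632407-70632706, minus strand) lie upstream of the start of its measured transcript at 70631772. The nearer window begins at 70632046, so none of the 250 bases just before that start was searched.

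The 250 bases that hold the Cdkn1a element, chr17:29090729-29090978 on the plus strand, are given for context, since Cdkn1a was among the genes that rose.
Cdkn1a upstream: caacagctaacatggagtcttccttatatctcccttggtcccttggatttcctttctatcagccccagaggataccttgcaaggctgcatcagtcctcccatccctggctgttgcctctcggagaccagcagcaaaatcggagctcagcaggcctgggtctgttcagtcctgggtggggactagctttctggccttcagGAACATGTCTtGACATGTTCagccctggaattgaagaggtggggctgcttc

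The libraries differed in tissue content, and 1 of them went against its label. The 8 cortex markers summed to 18460 to 24520 FPKM before, 4355 to 19040 at 24 h and 1553 to 3740 at 8 weeks. Replicate 3 at 24 h held Hsd3b1 at 3024 FPKM and Nr5a1 at 104.4 FPKM, but the corticotropin receptor gene Mc2r at 0.132 FPKM, Cyp11b1 at 1.07 FPKM and Cyp21a1 at 2.42 FPKM. In the other 3 libraries at 24 h Mc2r lay between 108.8 and 187.0 FPKM, Cyp11b1 between 969.4 and 1990 and Cyp21a1 between 1391 and 4764. The 8 medulla markers of replicate 3 summed to 19.6 FPKM. Part of the defining adrenal markers are thus near 0 in the library labelled 24 h replicate 3. Most of the calls and counts that use the 24 h group are given with and without it. Replicate 4 at 24 h also lacked medulla markers (116.9 FPKM against 1187 to 7698 before and at 8 weeks), while its cortex markers stood at 9052 FPKM.

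The 7 listed macrophage markers of 8 summed to 360.2 to 1025 FPKM before, 2230 to 3789 at 24 h and 4990 to 9804 at 8 weeks. Fat cell markers, 6 in all, ran from 179.2 to 1205 FPKM before, from 50.4 to 2523 at 24 h and from 4289 to 10570 at 8 weeks. No marker was at 0 in any library. In bulk RNA fewer cells of a type and less RNA per cell cannot be told apart, and the part of these shifts in the values below was not tested.

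Before TAM the genes spanned a wide range of levels per transcript length. Ccng1 (cyclin G1) was highest at 50.4 ± 8.68 FPKM (SD, n = 5), followed by Bax at 38.6 ± 6.69, Btg2 at 31.3 ± 21.4, Trp53inp1 at 26.4 ± 6.46 and Mdm2 at 25.2 ± 1.30. Sesn1 stood at 19.4 ± 2.80 FPKM, Cdkn1a at 14.8 ± 8.08 and Phlda3 at 13.02 ± 2.51. Bbc3 (1.44 ± 0.279 FPKM) and Gdf15 (1.13 ± 0.207 FPKM) were lowest, on 48 to 78 and 22 to 38 reads per library. Neighbours in this order overlapped between libraries except at 2 steps, from Mdm2 to Sesn1 and from Phlda3 to Bbc3. Relative to its mean Mdm2 was the most even of the 10 and Btg2 the most uneven.

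**Figure D1:**
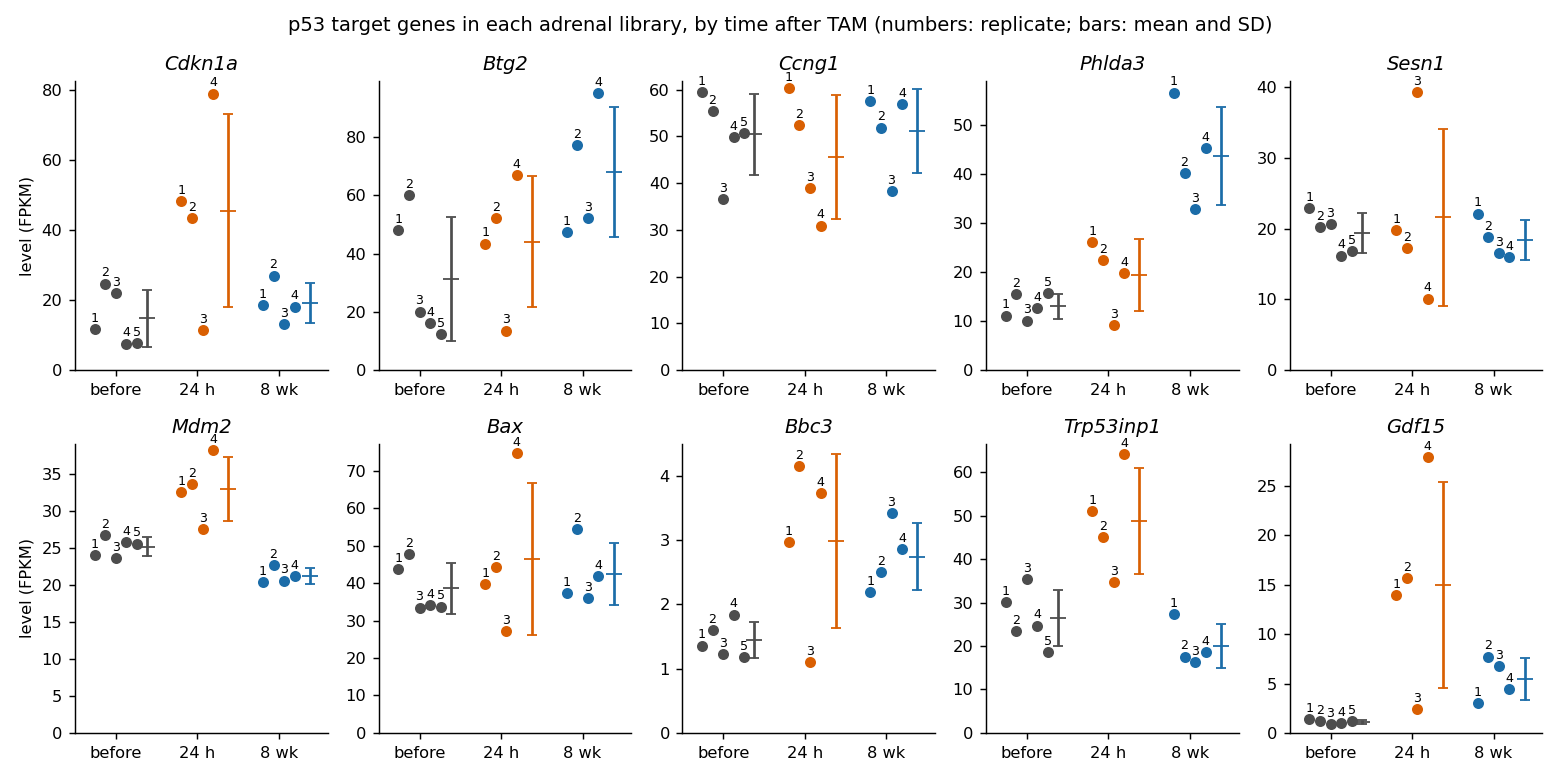
Level of each of the 10 p53 target genes (FPKM, y axis from 0) in the 5 libraries before TAM, the 4 at 24 h and the 4 at 8 weeks, each point being a library labelled with its replicate number and the bars showing mean and SD. Gdf15 lies at or under 1.43 FPKM in every library before TAM and at or above 2.38 FPKM in every later one, and replicate 3 at 24 h is the lowest of its group for 8 of the 10 genes.

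The comparison of 24 h with before asks what changed early. Gdf15, Cdkn1a, Bbc3, Trp53inp1 and Mdm2 rose, 5 of the 10, while 0 fell and 5 were not called. Of all 14078 genes 12.6% were called higher and 6.63% lower, 19.2% in all (edgeR's quasi-likelihood test, Benjamini-Hochberg adjusted p under 0.05). The median log2 fold change of the 10 was 0.59, beside 0.034 for all genes. In FPKM, 24 h lay wholly above before for 2 of the 10, Gdf15 and Mdm2, and wholly below for 0, against 9.75% and 8.01% of all genes.

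Without 24 h replicate 3 Phlda3 joined them and 6 of the 10 were called higher, against 16.6% of all genes higher and 11.8% lower. The same 6 genes then lay wholly above before in FPKM, against 15.2% of all genes, and the median of the 10 was 0.89. The count of 5 dropped when other libraries were left out. It was 1 without any 1 of before replicates 4 and 5 or 24 h replicate 4, 2 without before replicate 1 or 2 or 24 h replicate 2, and 3 without before replicate 3 or 24 h replicate 1. With only these 2 groups in the fit it was 2. Gdf15 was called in each of these fits. All genes called also changed, from 1851 to 3998 when 1 library was left out, against 2708 over all libraries.

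**Figure D2:**
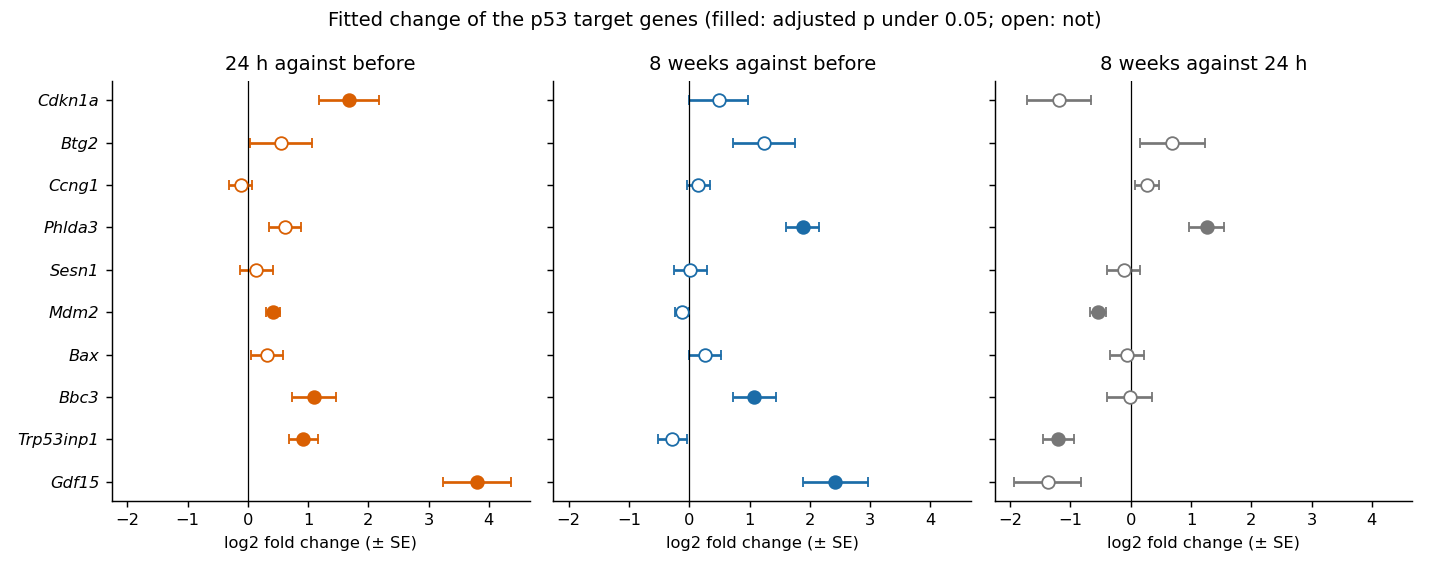
Fitted log2 fold change (x axis, with its standard error) of each gene in the 3 comparisons over all 13 libraries, where filled points have an edgeR adjusted p under 0.05. At 24 h 5 points are filled, all to the right of 0, at 8 weeks 3 are, and between 8 weeks and 24 h Phlda3 is filled to the right and Mdm2 and Trp53inp1 to the left.

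Gdf15 encodes a secreted stress cytokine that acts on the brain stem to suppress appetite. It stood at 1.43, 1.16, 0.872, 1.01 and 1.16 FPKM in the libraries before TAM, at 13.9, 15.7, 2.38 and 27.9 FPKM at 24 h and at 3.00, 7.72, 6.77 and 4.45 FPKM at 8 weeks. All later libraries lay above all earlier ones, and replicate 3 was far below the rest of the 24 h group. By edgeR Gdf15 rose 13.9-fold by 24 h (log2 3.8, SE 0.56, adjusted p = 0.00069), on 81 to 670 reads per library, and by log2 4.19 without replicate 3. At 8 weeks it was 5.35-fold above before (log2 2.42, SE 0.54, adjusted p = 0.0041). The step down from 24 h to 8 weeks did not pass the test (log2 −1.38, SE 0.56, adjusted p = 0.092), but did when 24 h replicate 3 was left out (log2 −1.80, adjusted p = 0.004).

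Trp53inp1 encodes a nuclear stress protein that also takes part in autophagy. It stood at 30.1, 23.4, 35.4, 24.7 and 18.6 FPKM before, at 51.1, 45.1, 34.8 and 64.1 FPKM at 24 h and at 27.4, 17.6, 16.3 and 18.6 FPKM at 8 weeks. At 24 h 3 libraries exceeded all from before, replicate 3 lay just under the highest of them, and the 8-week libraries were below all of 24 h. The rise by 24 h was log2 0.92 (SE 0.24, adjusted p = 0.019), and 1.10 when replicate 3 was dropped. Dropping any 1 of before replicates 2, 4 and 5 or 24 h replicate 4 gave adjusted p from 0.05 to 0.069. From 24 h to 8 weeks Trp53inp1 fell by 1.20 on that scale (SE 0.26, adjusted p = 0.011), or by 1.41 if replicate 3 is set aside, and its 8-week value against before was −0.28 (SE 0.24, adjusted p = 0.40).

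Cdkn1a encodes p21, the inhibitor of cyclin-dependent kinases through which p53 halts the cell cycle. It stood at 11.8, 24.7, 22.1, 7.58 and 7.81 FPKM before TAM, at 48.4, 43.6, 11.4 and 79.0 FPKM at 24 h and at 18.5, 27.0, 13.3 and 18.2 FPKM at 8 weeks. Replicates 1, 2 and 4 at 24 h exceeded all other libraries, while replicate 3 lay among those from before. Cdkn1a rose by log2 1.68 at 24 h (SE 0.50, adjusted p = 0.032), and by 2.03 with replicate 3 left out (adjusted p = 0.0027). Leaving out any 1 of before replicates 1, 4 and 5 or 24 h replicates 1, 2 and 4 ended the call, with adjusted p from 0.051 to 0.12. At 8 weeks its value against before was 0.49 (SE 0.49, adjusted p = 0.46). Of the alternative settings only limma voom with quality weights called Cdkn1a there (adjusted p = 0.023). Its 8-week value against 24 h was −1.19 (SE 0.53, adjusted p = 0.12), or −1.58 if replicate 3 is set aside (adjusted p = 0.017).

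Phlda3 followed another course. It encodes a protein with a pleckstrin homology domain that competes with the kinase AKT for membrane lipids and so restrains growth signals. It stood at 11.1, 15.5, 10.1, 12.7 and 15.7 FPKM before, at 26.2, 22.5, 9.15 and 19.8 FPKM at 24 h and at 56.6, 40.2, 32.8 and 45.2 FPKM at 8 weeks. Every library at 8 weeks lay above every other library. Phlda3 was higher at 8 weeks than before by log2 1.88 (SE 0.27, adjusted p = 0.00024) and higher than at 24 h by 1.26 (SE 0.29, adjusted p = 0.013), the latter 0.95 if replicate 3 is set aside (adjusted p = 0.0042). Its early value was 0.62 (SE 0.27, adjusted p = 0.13), or 0.89 if replicate 3 is set aside (adjusted p = 0.0026).

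Btg2, Ccng1 and Sesn1 were called in none of the 3 comparisons by edgeR over all libraries. Btg2, an antiproliferative gene that acts through messenger RNA decay, stood at 48.2, 60.1, 20.1, 16.1 and 12.4 FPKM before, at 43.4, 52.1, 13.6 and 66.9 FPKM at 24 h and at 47.4, 77.3, 52.3 and 94.9 FPKM at 8 weeks. Before replicates 1 and 2 were as high as several later libraries. In those 2 the 11 listed immediate early genes (Fos, Egr2 and others) summed to 548.6 and 547.3 FPKM, against 180.9 to 345.3 in the other 3, and the part of such genes in the Btg2 values was not tested. The 8-week value of Btg2 was log2 1.24 (SE 0.51, adjusted p = 0.074). It was called if before replicate 2 (1.58, adjusted p = 0.035) or 24 h replicate 3 (1.22, adjusted p = 0.032) was left out. DESeq2 (adjusted p = 0.032), a fit of only the 2 groups (adjusted p = 0.043, or 0.048 with their full transcript list), quality weights (1.99, adjusted p = 0.0034) and a fit without 24 h replicates 3 and 4 (adjusted p = 0.032) called it too. Its value at 24 h was 0.55 (SE 0.51, adjusted p = 0.50), or 0.89 if replicate 3 is set aside (adjusted p = 0.16).

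Ccng1 encodes cyclin G1, which recruits a phosphatase to Mdm2, and it carries one of the 2 closest matches to the response element. It ranged from 36.5 to 59.5 FPKM before, from 30.9 to 60.3 at 24 h and from 38.3 to 57.5 at 8 weeks, all 3 groups overlapping. Its log2 value was −0.12 (SE 0.19, adjusted p = 0.71) early and 0.15 (SE 0.19, adjusted p = 0.57) late. Sesn1, a sestrin that restrains the growth kinase mTORC1, stood between 16.2 and 23.0 FPKM before and between 16.0 and 22.1 FPKM at 8 weeks. At 24 h it was highest in replicate 3 (39.4 FPKM) and lowest in replicate 4 (10.1 FPKM), the reverse of Cdkn1a. For Sesn1 edgeR gave log2 0.14 (SE 0.27, adjusted p = 0.77) early, or −0.25 if replicate 3 is set aside (adjusted p = 0.36), and 0.02 (SE 0.27, adjusted p = 0.96) late.

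Mdm2 encodes the ligase that removes p53. It stood at 24.1, 26.8, 23.6, 25.8 and 25.6 FPKM before, at 32.6, 33.6, 27.5 and 38.2 FPKM at 24 h and at 20.4, 22.7, 20.6 and 21.2 FPKM at 8 weeks. In FPKM the 3 groups did not overlap, with 24 h highest and 8 weeks lowest, but after scaling of the libraries before overlapped with both later groups. The early rise was small, log2 0.42 (SE 0.12, adjusted p = 0.029), and 0.55 with replicate 3 left out (adjusted p = 0.0014). It was lost without any 1 of before replicates 1 to 5 or 24 h replicates 2 and 4 (adjusted p from 0.055 to 0.092). At 8 weeks the value against before was −0.12 (SE 0.12, adjusted p = 0.47). From 24 h to 8 weeks Mdm2 fell by 0.54 on the log2 scale (SE 0.13, adjusted p = 0.015), or by 0.70 if replicate 3 is set aside.

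Bbc3 encodes PUMA, a BH3-only activator of mitochondrial apoptosis, and Bax encodes an effector that forms the pore. Bbc3 stood at 1.36, 1.60, 1.22, 1.84 and 1.18 FPKM before, at 2.97, 4.15, 1.10 and 3.73 FPKM at 24 h and at 2.19, 2.51, 3.42 and 2.86 FPKM at 8 weeks. Replicate 3 at 24 h was below every library from before, and the other 3 and all 4 libraries at 8 weeks were above them. Bbc3 rose by log2 1.10 early (SE 0.36, adjusted p = 0.048) and was up by 1.08 late (SE 0.36, adjusted p = 0.032). With replicate 3 set aside these became 1.41 (adjusted p = 0.0012) and 1.05 (adjusted p = 0.0027). The early call was lost on leaving out any of the other 12 libraries (adjusted p from 0.052 to 0.12). The late one was lost without any 1 of before replicates 1, 2, 3 and 5 or 8-week replicates 3 and 4 (adjusted p from 0.06 to 0.096).

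Bax ranged from 33.5 to 47.7 FPKM before, from 27.1 to 74.8 at 24 h and from 36.1 to 54.4 at 8 weeks, the groups overlapping. Its log2 value was 0.32 early (SE 0.26, adjusted p = 0.44) and 0.26 late (SE 0.26, adjusted p = 0.46). The early one was 0.56 if replicate 3 is set aside (adjusted p = 0.076) and −0.05 without 24 h replicate 4. The late one was called only by limma voom with quality weights (adjusted p = 0.045).

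The late comparison, 8 weeks against before, is the one the series design is about, and it had 3 of the 10 genes called, Phlda3, Gdf15 and Bbc3, all higher. Of all genes 20.5% were called higher and 16.4% lower, 36.9% in all, and 3 of 10 is near the share over all genes. The median log2 fold change of the 10 was 0.38, beside 0.03 for all genes. In FPKM 3 of the 10 lay wholly above before (18.1% of all genes) and 1, Mdm2, wholly below (26.5%). In number 2882 genes were higher and 2311 lower, which became 2424 and 3054 when no scaling factor was used. The count of the 10 was 2 without any 1 of before replicates 1, 3 and 5 or 8-week replicates 3 and 4, and 4, with Btg2, when 24 h replicate 3 was left out of the shared estimate of spread. In that last fit 24.3% of all genes were called higher and 23.4% lower.

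Between 8 weeks and 24 h, Phlda3 rose and Mdm2 and Trp53inp1 fell, and these 3 also did not overlap between the groups in FPKM. Of all genes 10.1% were called higher and 10.6% lower, 20.8% in all, and 9.92% lay wholly above and 13.3% wholly below. Without 24 h replicate 3 Cdkn1a and Gdf15 were lower as well and 5 of the 10 were called, against 12.8% of all genes higher and 17.7% lower. With only those 2 groups in the fit the single call was Trp53inp1. Here 1428 of all genes were higher and 1495 lower, which became 1181 and 2093 when no scaling factor was used. The 3 comparisons share libraries, so their values are not independent.

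The authors' deposited table, which compares 8 weeks with before per transcript, gives Phlda3 a log2 ratio of 1.74 (q = 0.0012), Gdf15 2.21 (q = 0.0021) and Bbc3 0.93 (q = 0.0082). In the authors' deposited table Btg2 has 1.34 with q = 0.095, and the main Cdkn1a transcript 0.54 with q = 0.37.

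Within the 24 h group the same libraries were often at the extremes. Replicate 4 was highest for 6 of the 10 and replicate 3 lowest for 8, while Ccng1 and Sesn1 were lowest in replicate 4. The 12 ATF4 and CHOP stress genes (Trib3, Slc7a11 and others) summed to 567.1, 689.6, 271.6 and 789.6 FPKM in replicates 1 to 4. The 5 endothelial markers summed to 311.8, 337.8, 105.7 and 378.9 FPKM. The 11 immediate early genes summed to 412.6, 426.9, 149.6 and 651.6 FPKM. These lists were thus lowest in replicate 3 and highest in replicate 4, as Cdkn1a and Gdf15 were, and their part in those levels was not tested. Replicate 3 was also lowest of its group for the cortex, medulla, macrophage, lymphocyte and fat cell markers. It was highest for the capsule and fibroblast markers and for the cell cycle list.

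**Figure D3:**
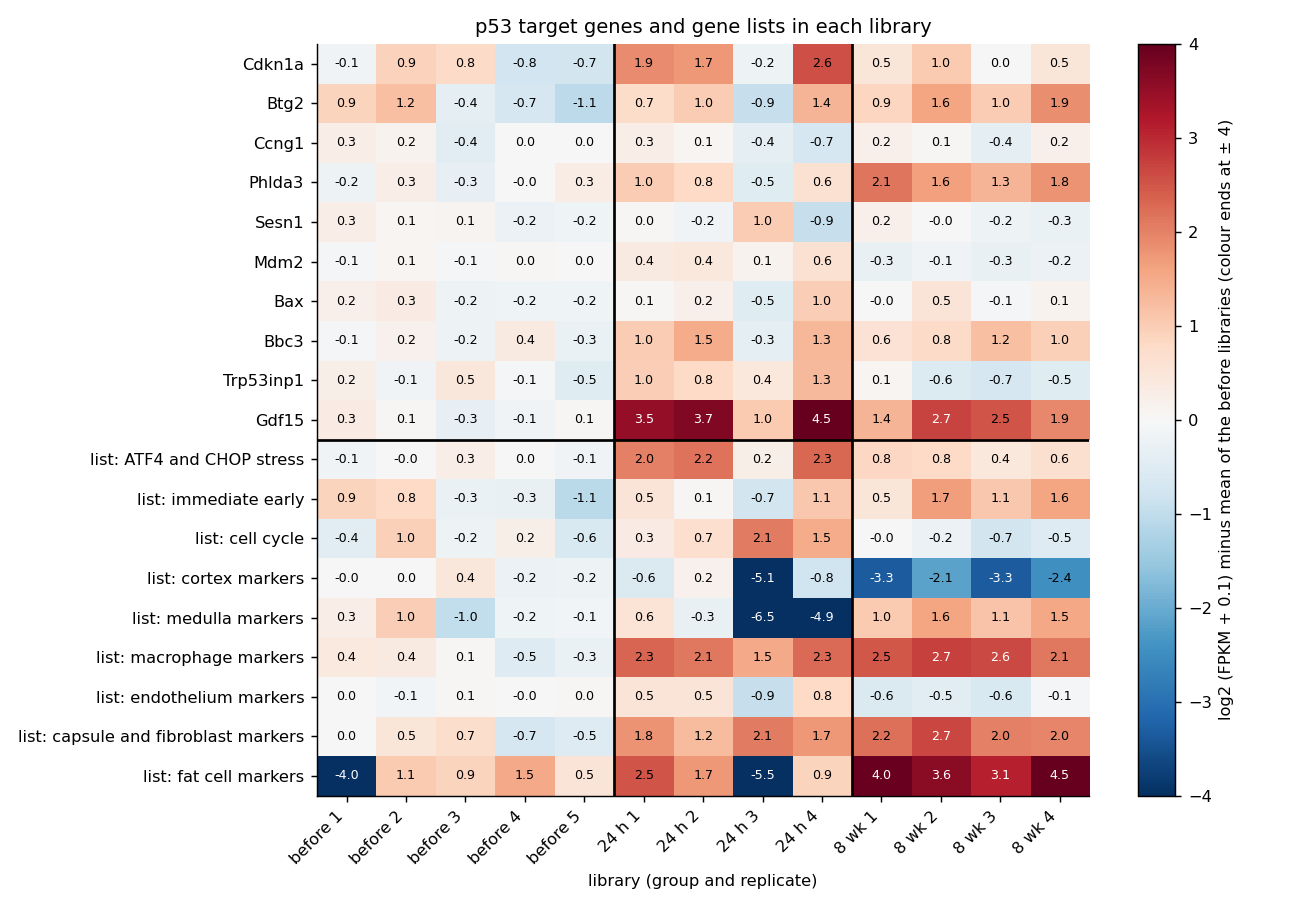
Each of the 13 libraries (columns) for the 10 genes (upper rows) and the mean of gene lists (lower rows), as log2 of FPKM plus 0.1 minus the mean of the libraries before TAM, red above and blue below. Replicate 3 at 24 h is near or below 0 for Cdkn1a, Bbc3 and Phlda3 where replicates 1, 2 and 4 are red, and in the same column the cortex markers stand at −5.13.

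By likeness over the 13 libraries, which share group and composition, Gdf15 was closest to Cdkn1a among the other 9 (Pearson r = 0.81 of log2 scaled counts), followed by Bax (0.74), Mdm2 (0.72), Trp53inp1 (0.70), Bbc3 (0.68) and Btg2 (0.62). Phlda3 (0.34), Ccng1 (−0.12) and Sesn1 (−0.45) were least like it. Gdf15 ranked 144 in order of r among 12072 genes. Without 24 h replicate 3 the r of Gdf15 was 0.81 at rank 221 of 12029, Trp53inp1 (0.75) came before Bax and Mdm2 (0.73 each), and Phlda3 had 0.26. The 5 genes most like Cdkn1a were Zwint (0.933), Mthfd2 (0.923), Procr (0.909), Egfl7 (0.908) and Map2k1 (0.906). Without replicate 3 Zwint kept the first rank (0.94), and the other 4 ranked 6, 13, 8 and 11. Procr, the gene of the endothelial protein C receptor, averaged 11.1 FPKM before, 482.9 at 24 h and 39.9 at 8 weeks. Mthfd2, the gene of a mitochondrial enzyme of folate metabolism, averaged 8.51, 31.7 and 10.7 FPKM.

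The gene of p53 and its regulators form a list of 15 tested genes. At 24 h 0 were called by edgeR and 0 by DESeq2, with 1 at an unadjusted p under 0.05, beside 12.6% of all genes called higher and 6.63% lower by edgeR. With quality weights, or without 24 h replicate 3, 3 were called lower, the latter beside 11.8% of all genes. Trp53 stood at 33.2 ± 2.98 FPKM before, 36.9 ± 14.2 at 24 h and 23.0 ± 5.46 at 8 weeks. Its log2 value was 0.15 early (SE 0.19, adjusted p = 0.63) and −0.41 late (SE 0.19, adjusted p = 0.12). In replicate 3 at 24 h Trp53 was at 56.7 FPKM, the highest of its group, and without it the values were −0.06 (adjusted p = 0.82) and −0.44 (adjusted p = 0.026). Mdm4, the partner of Mdm2 that masks p53, stood at 13.7, 9.21, 38.1 and 11.4 FPKM at 24 h, against 17.5 to 19.6 FPKM before. Over all libraries its early value was −0.05 (SE 0.30, adjusted p = 0.93), but without replicate 3, the one high library, it was −0.61 (adjusted p = 0.0044).

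At 8 weeks 3 of the 15 fell, Trp53bp1, Rchy1 and Usp7, the last a deubiquitinase gene (25.97 ± 2.75 to 18.1 ± 1.20 FPKM, log2 −0.39, SE 0.13, adjusted p = 0.029). That is near the 16.4% of all genes called lower. The count was 7 without 24 h replicate 3 or with only the 2 groups in the fit, 5 without 24 h replicate 4, and 1 without before replicate 3 or 8-week replicate 1 or 2. The share of all genes called lower was 23.4% when 24 h replicate 3 was left out.

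Other p53 targets moved in both directions. Of 39 tested, 8 rose and 3 fell at 24 h, beside 12.6% and 6.63% of all genes, with a median log2 fold change of 0.30. Without 24 h replicate 3 the counts were 13 and 6, beside 16.6% and 11.8% of all genes. Pmaip1, which encodes the BH3-only protein NOXA, rose from 0.643 ± 0.210 to 3.51 ± 1.72 FPKM (log2 2.50, SE 0.39, adjusted p = 0.00086), and all 4 libraries at 24 h exceeded those from before, replicate 3 among them. Apaf1, the scaffold of the apoptosome, rose from 2.36 ± 0.164 to 5.75 ± 1.82 FPKM (log2 1.32, SE 0.19), and Gadd45a, a growth arrest gene, from 10.4 ± 4.12 to 30.4 ± 8.24 FPKM (log2 1.58, SE 0.27). Without replicate 3 these 3 values were 2.73, 1.35 and 1.67. Polk, a translesion DNA polymerase gene, fell from 18.8 ± 2.64 to 8.16 ± 2.86 FPKM (log2 −1.18, SE 0.21), Ak1 by 1.83 on the log2 scale and Dcxr by 1.21. Without replicate 3 Polk stood at −1.02 and Ak1 at −1.55, both called, and Dcxr was not called (adjusted p = 0.062). The call of Ddit4l rested on replicate 3, with 42.0 FPKM there and 0.699 to 1.48 FPKM in the other 3 libraries.

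At 8 weeks 11 of those 39 rose and 4 fell, beside 20.5% and 16.4% of all genes, with a median of 0.05. Tnfaip8, whose product restrains apoptosis, rose from 3.76 ± 0.496 through 8.92 ± 1.82 at 24 h to 19.2 ± 4.44 FPKM (log2 2.48 at 8 weeks, SE 0.17, adjusted p = 3.6e-06). Pmaip1 was higher by log2 2.43 (SE 0.39), Plk2 by 1.90 (SE 0.32) and Gadd45a by 1.34 (SE 0.27), and Fas, the death receptor gene, by 1.25 (SE 0.28). Polk fell further, to 4.31 ± 0.718 FPKM. Zmat3 and Aen, both direct targets of p53, fell by 0.70 (SE 0.17, adjusted p = 0.0065) and 0.90 (SE 0.23, adjusted p = 0.0081). In this list 8 were lower by DESeq2 or with only the 2 groups in the fit, and 7 without 24 h replicate 3. Without that replicate 23.4% of all genes were called lower, so the 7 of 39 are no excess. For the counts of 8 no such share is given here, and they are not read as a result about the list.

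**Figure D4:**
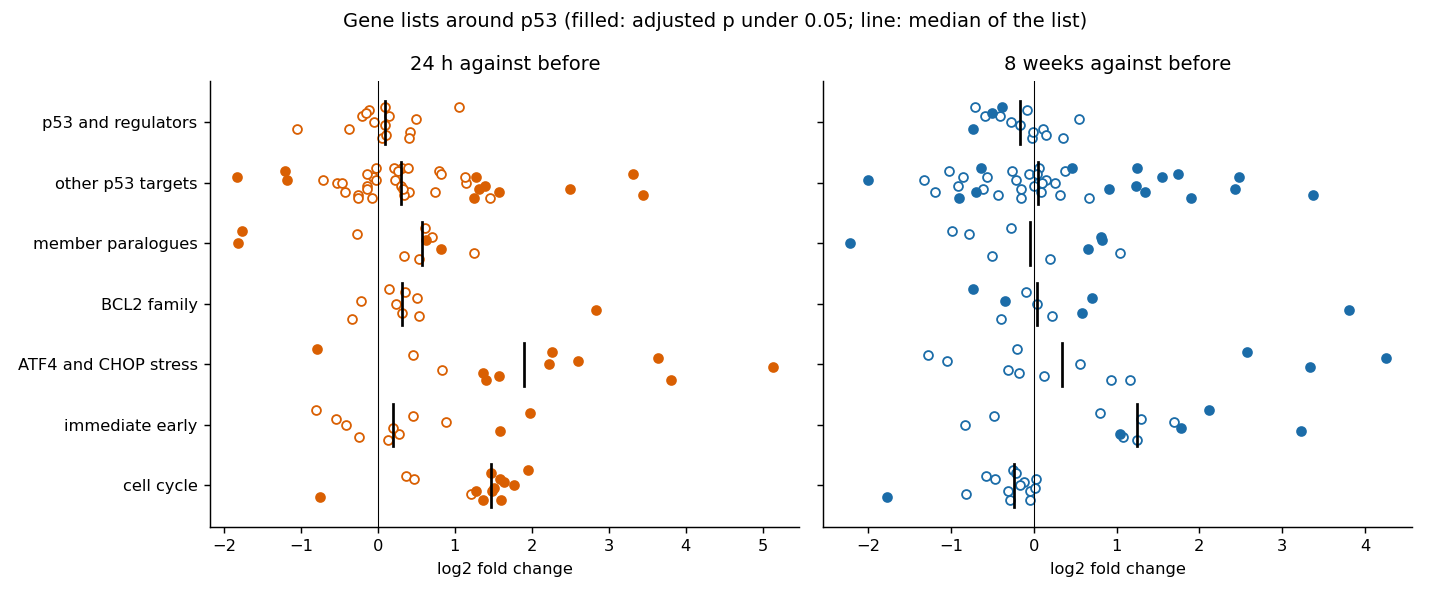
Log2 fold change of every tested gene of 7 lists around p53 at 24 h (left) and 8 weeks (right) against before, over all 13 libraries, with filled points at an edgeR adjusted p under 0.05 and a line at each list's median. At 24 h the medians of the ATF4 and CHOP list (1.90) and the cell cycle list (1.47) lie farthest to the right, and that of p53 and its regulators (0.09) lies near 0.

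Paralogues of the 10 genes were read beside them. Cdkn1c, a cell cycle inhibitor gene related to Cdkn1a, went the opposite way to it at 24 h, from 130.2 ± 56.5 down to 37.6 ± 22.9 FPKM (log2 −1.76, SE 0.41, adjusted p = 0.0097; −1.50 without replicate 3). Phlda1 likewise parted from Phlda3, at 37.3 ± 17.0 FPKM before, 10.3 ± 5.26 at 24 h and 7.12 ± 3.57 at 8 weeks (log2 −2.22 late, SE 0.48, adjusted p = 0.0033). Btg1 rose from 22.7 ± 3.14 to 39.2 ± 8.30 FPKM at 24 h (log2 0.82, SE 0.20, adjusted p = 0.011; 0.89 without replicate 3). Ccng2 was also called there (log2 0.63, adjusted p = 0.048), but not without replicate 3 (0.48, adjusted p = 0.095). Of 10 tested, 2 rose and 2 fell at 24 h and 3 rose and 1 fell at 8 weeks, beside 12.6% and 6.63%, and 20.5% and 16.4%, of all genes. Leaving out 24 h replicate 3 gave 3 and 2 (Bak1, Btg1 and Btg3 rising), beside 16.6% and 11.8% of all genes. At 8 weeks it gave 4 and 4, beside 24.3% and 23.4%. The early rises numbered 1 without any 1 of before replicates 1, 2, 4 and 5 or 8-week replicates 1, 2 and 4, and 4 without 24 h replicate 2, and the early falls numbered 1 without 24 h replicate 4. The late rises numbered 1 without before replicate 4 or 5 or 8-week replicate 2, and the late falls 2 without 24 h replicate 2 or 4.

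In a list of 9 BCL2 family genes 1 rose at 24 h, near the 12.6% of all genes called higher. It was Bcl2a1d, whose near-identical copies share reads and leave its value uncertain. The list leaves out family genes counted above: Bbc3 and Pmaip1 rose then, and Bax, Bcl2l1, Bak1 and Bok were not called. Without 24 h replicate 3 Bak1 (log2 0.73, adjusted p = 0.0021) and Bcl2l1 (0.45, adjusted p = 0.026) were called too. Of the genes left out, Bbc3, Pmaip1 and Bok were called higher at 8 weeks. The counts here are thus of this list and not of the whole family. At 8 weeks 3 of the 9 rose, Bcl2a1d, Bid (log2 0.58, SE 0.18, adjusted p = 0.024) and Bcl2 (log2 0.70, SE 0.24, adjusted p = 0.033), beside 20.5% of all genes. The 2 that fell, beside 16.4% of all genes, were Bcl2l2 (log2 −0.35, SE 0.10, adjusted p = 0.015) and Bcl2l11, the gene of BIM, from 11.3 ± 3.66 to 6.21 ± 0.721 FPKM (log2 −0.73, SE 0.24, adjusted p = 0.033). The early count of these 9 was 2 without 24 h replicate 3, beside 16.6% of all genes called higher. Without that replicate the late calls stayed and Bad fell as well (−0.43, adjusted p = 0.017), beside 24.3% of all genes higher and 23.4% lower. Of the late calls, 1 rise was left without any 1 of before replicates 2, 4 and 5 or 8-week replicate 1, and 1 fall without any 1 of before replicates 1 and 5 or 8-week replicates 1, 2 and 4. Of the 11 immediate early genes 2 rose at 24 h and 4 at 8 weeks, beside 12.6% and 20.5% of all genes. Without 24 h replicate 3 the same genes were called at 24 h. At 8 weeks Dusp1 then rose as well (1.22, adjusted p = 0.012) and Jun fell (−0.85, adjusted p = 0.022), beside 24.3% and 23.4% of all genes. The early count was 1 without before replicate 2 or 24 h replicate 1 and 0 without any 1 of before replicates 3, 4 and 5 or 24 h replicate 4, and the late count was 2 without any 1 of before replicates 3 and 4 or 8-week replicates 2 and 4.

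Stress genes with inputs in common with Gdf15 and Bbc3 moved at 24 h. Of 12 ATF4 and CHOP genes 9 rose and 1 fell then, beside 12.6% and 6.63% of all genes, and 3 rose and 0 fell at 8 weeks, beside 20.5% and 16.4%. Without 24 h replicate 3 the counts at 24 h were 10 and 0, beside 16.6% and 11.8% of all genes. At 8 weeks they were 5 and 2, beside 24.3% and 23.4%, the 2 being Chac1 (−1.08, adjusted p = 0.015) and Psat1 (−1.32, adjusted p = 0.029). By edgeR the lowest p at 24 h belonged to Slc7a11, a cystine transporter gene (log2 5.13, SE 0.44), and to Atf3 (3.64, SE 0.40) and Nupr1 (2.26, SE 0.34), which were the 3 called at 8 weeks as well. Phgdh, of serine synthesis, rose by 2.23 (SE 0.42) at 24 h. Without replicate 3 the early value was 5.42 for Slc7a11, 3.91 for Atf3, 2.11 for Nupr1 and 2.47 for Phgdh. The early fall, Cebpb, was also lost without any 1 of before replicates 1 to 4, 24 h replicates 1 and 4 or 8-week replicates 2 and 4. Trib3, a pseudokinase gene of that response, stood at 20.3, 30.1, 1.42 and 28.8 FPKM at 24 h against 1.09 to 2.33 FPKM before, low in the same replicate 3 as Cdkn1a. Ddit3, the gene of CHOP, rose from 23.9 ± 3.53 to 60.1 ± 26.3 FPKM (log2 1.37, SE 0.27, adjusted p = 0.0037; 1.63 without replicate 3) and stood at 19.4 ± 3.89 FPKM at 8 weeks.

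Cell cycle genes that p21 is known to hold down through the DREAM complex rose in 10 of 14 cases at 24 h, and 1, Mcm2, fell (12.6 ± 2.32 to 7.41 ± 2.12 FPKM), beside 12.6% and 6.63% of all genes. The log2 value of Mcm2 was −0.75, or −0.88 without replicate 3. Mki67, a marker of cycling cells, stood at 2.79, 2.604, 7.38 and 5.93 FPKM at 24 h against 0.884 to 2.91 FPKM before. Its high libraries were replicates 3 and 4, of which one was the lowest and the other the highest of the group in Cdkn1a. The count of 10 became 5 without replicate 3 (beside 16.6% of all genes), 4 without replicate 4 and 0 without both. It also became 4, 5, 6 and 3 without before replicates 1, 3, 4 and 5, and 5 with only the 2 groups in the fit. All genes called at 24 h ranged from 1851 to 3998 when 1 library was left out, against 2708 over all libraries. A drop of this list alone is not shown by these counts.

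Several of the 10 genes are listed as 2 transcript models, whose common reads are assigned by estimate. The main Cdkn1a model, NM_007669, has the downstream start and averaged 13.4 ± 7.17 FPKM before, 43.6 ± 26.8 at 24 h and 18.0 ± 5.78 at 8 weeks. The model NM_001111099, whose start lies beside the response element, averaged 1.39 ± 1.49, 1.99 ± 0.895 and 1.29 ± 0.301 FPKM. The main model thus held 91.0 ± 5.39% of the gene before and 95 ± 1.58% at 24 h, with 92.8% in replicate 3.

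Mdm2 and Trp53inp1 each have 2 models with the same ends. In Mdm2 the model NM_001288586 held 14.7 ± 3.08% before, 21.4 ± 11.4% at 24 h and 33.1 ± 16.1% at 8 weeks, when its share ran from 19.9 to 56.5% and exceeded every library from before. In replicate 3 at 24 h it held 25.2%, within the range of its group. In the authors' deposited table its log2 ratio at 8 weeks is 0.84 (q = 0.092), and that of the other Mdm2 model, NM_010786, −0.63 (q = 0.019). The minor Trp53inp1 model, NM_001199105, held 24.6 ± 5.17%, 18.2 ± 8.29% and 23.0 ± 18.3%, with overlapping groups.

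The Sesn1 model with the distal start, NM_001162908, held 18.1 ± 4.15% before, 14.2 ± 1.76% at 24 h and 6.62 ± 3.94% at 8 weeks. Replicate 3 at 24 h had the highest share of its group, 16.3%. The 8-week shares of 2.44 to 11.7% lay below all those from before and from 24 h. In the authors' deposited table the log2 ratio of this model is −1.72 (q = 0.013), while that of the other model, whose start lies beside the matched element, is 0.11 (q = 0.63). The sum of the Sesn1 models was not called.

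**Figure D5:**
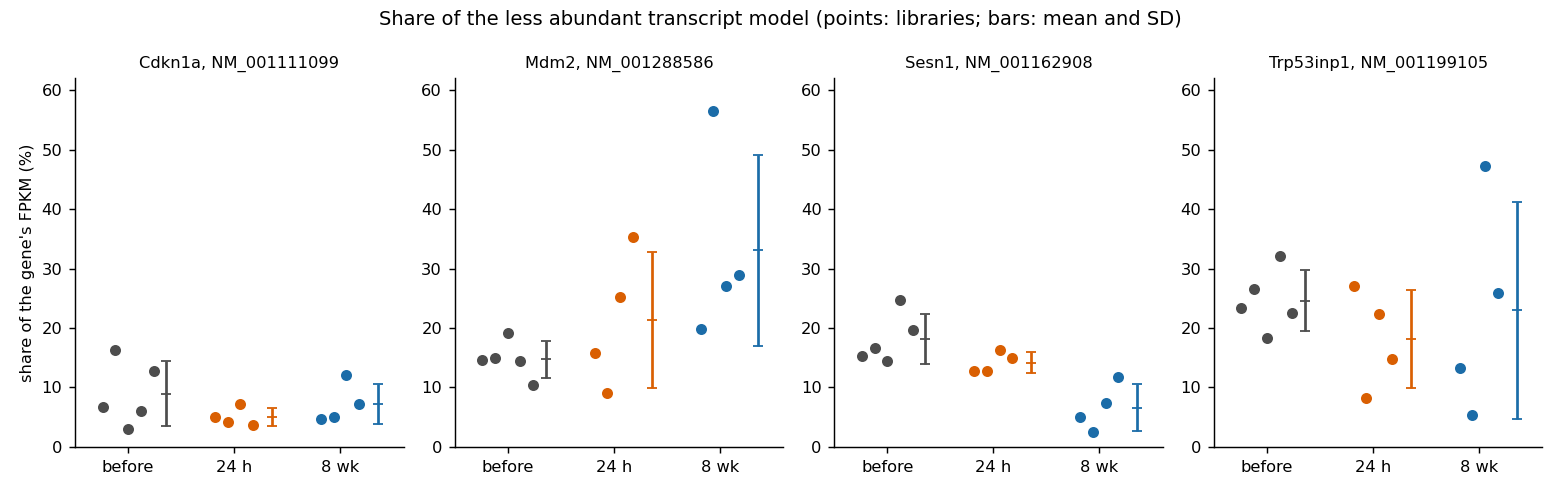
Share of the less abundant transcript model in the FPKM of Cdkn1a, Mdm2, Sesn1 and Trp53inp1 (y axis, percent, from 0), with 1 point per library and bars for mean and SD. The Mdm2 shares at 8 weeks (19.9 to 56.5%) all lie above those from before and the Sesn1 shares (2.44 to 11.7%) all below.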

How the data were processed

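Expected counts (estimated reads, not always whole numbers) and FPKM for each RefSeq transcript were deposited for 13 libraries, per the file headers, and the labels name a stranded messenger RNA kit. The submitters' processing notes list bcl2fastq 2.17, TopHat2 2.0.14 and the build mm10 (GRCm38). The counter and the filter on listed transcripts are not given in the sources used here. A further table by the authors gives a p-value, a q-value and a log2 ratio for 8 weeks against before, per the file headers.

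Expected counts of the 18738 transcripts listed in all tables were summed per gene, rounded and fitted in 1 model of all libraries with edgeR 4.0.16 (R 4.3.3, TMM scaling, filterByExpr, quasi-likelihood test, Benjamini-Hochberg adjustment over 14078 genes, threshold 0.05). All adjusted p-values come from edgeR unless another tool is named, and standard errors are the log2 fold change over the root of F. The code was tested on simulated data. Listed reads ran from 17331673 to 27309429 per library. No pair of replicates agreed within sampling noise. FPKM of a gene is the sum over its transcripts. Alternatives were DESeq2 1.42.0, limma 3.58.1 voom with quality weights, no scaling, no filter, fewer groups, a replicate block and leaving out libraries. Likeness to Cdkn1a was taken over genes with a mean of at least 5 counts per scaled library unit (CPM).

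The 10 genes and the lists were chosen with earlier results of these data known. Named list genes are drawn from the called ones, the first 6 by p of a list and comparison at most. Trp53 and Mdm4 are named for their role. Dcxr, Ddit4l, Fas, Zmat3, Aen, Cebpb, Chac1, Psat1, Bak1, Btg3, Bcl2l1, Bad, Dusp1 and Jun were singled out after their values were seen. Coordinates are 1-based on mm10.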

Additional observations from a re-analysis of the deposited data

Results flagged for a closer look

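The change from before differed between 24 h and 8 weeks for 3 of the 10 genes, by edgeR's test of 8 weeks against 24 h. This is the comparison already given above, in which 20.8% of all genes were called, 10.1% higher and 10.6% lower. The log2 difference was 1.26 for Phlda3 (adjusted p = 0.013), which was higher at 8 weeks in 4 of 4 libraries than in any at 24 h. It was −0.54 for Mdm2 (adjusted p = 0.015) and −1.20 for Trp53inp1 (adjusted p = 0.011), each lower at 8 weeks in 4 of 4 libraries than in any at 24 h. With only these 2 groups in the fit the adjusted p was 0.056 for Phlda3 and 0.06 for Mdm2. Of 30 sets of libraries (10 genes in 3 groups) 0 held a library far enough from the rest to pass Dixon's 95% critical value, which chance passes in about 1 in 20. With 4 or 5 values per set this test can miss an outlying library, and the sets share libraries. Replicate 3 at 24 h was lowest of its group for 8 of the 10 genes. Its log2 counts over all genes correlated with those of its group at only 0.793 to 0.803.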

How the results depend on the processing

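Counts of the 10 genes called ranged from 1 to 6 (24 h against before), 2 to 4 (8 weeks against before) and 3 to 5 (8 weeks against 24 h) when a library was left out. All genes called then ranged from 1851 to 3998, from 4153 to 6706 and from 1782 to 4300. List counts above without a share beside them are to be read with these ranges. In the same order the counts of the 10 were 2, 4 and 1 with only the 2 groups in the fit, 5, 4 and 4 by DESeq2, and 6, 6 and 4 with quality weights. With a replicate block they were 1, 2 and 3. The replicate numbers did not pair the libraries, since the deviations of same-numbered libraries correlated between −0.13 and 0.28, and the block took all genes called from 2708 to 1312 at 24 h and from 2923 to 1661 between the later times. All genes called were also 5378 (24 h) and 8101 (8 weeks, main value 5193) with quality weights, 7895 at 8 weeks in a fit of only those 2 groups with all their listed transcripts (7444 with the shared transcripts), and 973 between 8 weeks and 24 h with only these groups, or 1782, 1808 and 1941 without 8-week replicates 1, 2 and 4. Listing all transcripts changes no other pair, as the lists are the same. Leaving out 24 h replicates 3 and 4, an alternative chosen after seeing the data, gave 6, 4 and 4 of the 10. For that fit and for DESeq2 the share of all genes called is not given here. With quality weights the 6 of 10 at 8 weeks stand beside 8101 of 14078 genes. The counts under these settings are not read as a result about the 10.

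Of 610 values of single genes under 21 settings, 515 kept direction and side of the threshold, 46 lost a call, 17 gained one and 32 changed sign, all of these in values that were not called. The filter removed no gene, so the setting without it repeats the main fit. Its values are among the 515 by construction. At 24 h Ccng1 went from −0.12 to 0.12 with quality weights and 0.21 without 24 h replicates 3 and 4 (−0.28 to 0.01 leaving out 1 library, 0.00 without 24 h replicate 3). Sesn1 went from 0.14 to −0.00 with the replicate block and −0.04 without those 2 libraries (−0.25 to 0.35), and Bax from 0.32 to between −0.05 and 0.56. At 8 weeks Sesn1 went from 0.02 to −0.11 without scaling, −0.01 with only the 2 groups, −0.04 with all transcripts, −0.02 with the replicate block and −0.01 without those 2 libraries (−0.07 to 0.08). Between 8 weeks and 24 h Ccng1 went from 0.27 to −0.09 without those 2 libraries. Sesn1 went from −0.12 to 0.04 with quality weights and 0.02 without them (−0.36 to 0.23), Bax from −0.06 to 0.02 with the replicate block, 0.12 with quality weights and 0.06 without them (−0.33 to 0.28), and Bbc3 from −0.02 to 0.07 with the block (−0.37 to 0.17). The cause was not tested. Without scaling the median of all genes at 8 weeks moved from 0.03 to −0.097. Depth limits Gdf15 and Bbc3 before TAM, which rest on 22 to 78 reads.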
